A study of Mus musculus with 89 samples.

Results

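Transmembrane mucins are glycoproteins whose serine- and threonine-rich stretches are covered with O-linked sugars and which stay anchored in the apical membrane. On intestinal cells they stand on the microvilli and form the glycocalyx, the sugar coat beneath the secreted mucus gel that goblet cells build from Muc2. Besides acting as a barrier, several of them carry extracellular domains that are cleaved during synthesis and cytoplasmic tails that bind scaffold or signalling proteins.

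Of the genes of this family, 5 were chosen by name, Muc1, Muc3, Muc3a, Muc4 and Muc13, and all 5 had a row among the 27538 genes of the clump table and the 23379 genes of the cell table. Both tables came from the jejunum of C57BL/6 mice on normal chow, with no treatment or genetic change. The labels give an age of 3 months for every plate except 3 single-cell plates of mouse 2, labelled 4 months. Clumps are small groups of neighbouring cells left by mild dissociation and sorted into wells, so a clump library mixes the RNA of cells that touched each other in the tissue. The labels number the mice of clumps (mice 1 to 5, with a mouse 6 sorted under another gate and kept out of the tests) and of single cells (mice 1 to 4). They do not say whether an equal number means the same animal, and the 2 materials were treated separately. Clumps of mice 1, 4 and 5 were sorted as pairs of cells (labelled 4n) and as larger clumps (h4n), those of mice 2 and 3 as pairs alone, and the single-cell plates whose labels name a sort gate differ in it.

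Each clump was assigned to crypt, mid villus or villus tip from the enterocyte landmark genes of the study. Muc3 is itself one of the tip landmarks, so all members were taken out of the landmark lists before zones were given. The 5883 clumps that received a zone comprised 3537 crypt, 1561 mid villus and 785 tip clumps, with a median of 4418, 1880 and 1333 unique molecular identifiers (UMIs, each counting 1 captured mRNA molecule) per clump. Crypt clumps of mouse 4 alone held 10637 of the 15458 crypt UMIs of Muc13, so levels are given as counts per 1000000 UMIs (CPM) in each mouse and every mouse counted once. The 5199 single cells kept were clustered without the members and included 213 goblet-like, 2508 enterocyte-like, 187 tuft-like, 245 enteroendocrine-like and 1624 immune-like cells. The 12 goblet markers summed to between 136666 and 238485 CPM in the goblet-like cells of a mouse and to at most 688 CPM in enterocyte-like cells, and all 12 were detected in the goblet-like class.

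Because the reads come from the 3' end of each mRNA and are collapsed to molecules, levels of different genes are compared as molecules and are not divided by transcript length. Muc13 was the most abundant member, with 32001 UMIs over all clump wells and 22705 over all single-cell wells. Muc3 followed with 9889 and 4287 UMIs, then Muc4 with 1458 and 549, and Muc3a with 700 and 254. Muc1, the family member of stomach, breast and pancreas that serves as a tumour marker, had 1 UMI in the clump table and 3 in the cell table.

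Muc3 (ENSMUSG00000037390) lies on the minus strand at chr5:137134922-137149322 of GRCm38, and the annotated Muc3a (ENSMUSG00000094840) lies on the same strand at chr5:137208813-137212389. Muc4 (ENSMUSG00000079620, chr16:32735886-32782391) and Muc13 (ENSMUSG00000022824, chr16:33794037-33819934) are both on the plus strand of chromosome 16. Muc1 (ENSMUSG00000042784) is at chr3:89229057-89233381 on the plus strand. The annotation tags Muc3a as affected by an error of the reference genome, so where its reads fall in the assembly is less certain than for the other members. No stretch of 66 bases was shared between the annotated transcripts of any 2 members. The 3' end of Muc4 overlaps Muc20 on the opposite strand, and the counting was run with strand.

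The windows of up to 250 bases before the RefSeq starts (GRCm38.p6) of the 2 most abundant members, Muc3 and Muc13, are shown because the longest run they share, on either strand, is the 11 bases AGGTCAAAGGT, which read as a nuclear receptor repeat of AGGTCA and AGGT. The longest run shared by any other pair of members with a RefSeq window (Muc1, Muc3, Muc4, Muc13) was 9 bases. Capitals mark the repeat, which reads ACCTTTGACCT on the strand printed for Muc13. Both sequences are on the strand of the gene, 5' to 3'.
Muc3, chr5:137166047-137166296, minus strand: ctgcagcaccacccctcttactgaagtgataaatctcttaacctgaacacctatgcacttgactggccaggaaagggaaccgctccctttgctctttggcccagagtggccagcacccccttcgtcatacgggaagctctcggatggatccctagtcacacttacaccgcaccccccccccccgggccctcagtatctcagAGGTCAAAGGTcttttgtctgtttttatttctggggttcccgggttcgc
Muc13, chr16:33794239-33794366, plus strand: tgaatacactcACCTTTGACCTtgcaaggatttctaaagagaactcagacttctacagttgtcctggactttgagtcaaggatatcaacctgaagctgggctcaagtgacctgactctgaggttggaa
The repeat ends 38 bases before the RefSeq start of Muc3, which is 16724 bases upstream of the start of Muc3 in the other annotation used here. For Muc13 it lies 228 bases before the downstream of its RefSeq starts, at position 33794489, and the stretch printed lies within the annotated gene, which starts at position 33794037, and ends before the next annotated exon. Over both strands, AGGTCAAAGGT was found in 19 of 32851 RefSeq windows of 250 bases, or 0.0578%. The shorter AGGTCA, which overlaps it, was in 14.02% of the windows. The repeat was picked from these sequences themselves, and a match describes letters only.

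Levels of 4 members rose from crypt to villus tip in clumps, while Muc1 had a single UMI in the 5883 clumps. Between tip and crypt, 4 of the 4 members tested were called higher, where 54.2% of the 7252 genes tested were called and 23.8% were called higher (edgeR's quasi-likelihood test on the mouse sums, Benjamini-Hochberg adjusted p under 0.05 over all genes tested). These counts over all genes depend on scaling: 1726 genes were called higher and 2208 lower with TMM factors, against 1122 and 2640 with total UMIs alone, and the median log2 fold change of all genes moved from -0.12 to -0.50. In clumps, a change in the number of cells of a type and a change in RNA per cell cannot be told apart.

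Muc13, a short transmembrane mucin with epidermal growth factor-like domains, was the most abundant member in every zone of every mouse. In crypt clumps it measured 499, 509, 854, 559 and 800 CPM in mice 1 to 5. In mid villus clumps it measured 1307, 1384, 2205, 1347 and 1925 CPM, and in tip clumps 2054, 1963, 2863, 1644 and 2143 CPM. Every mid villus and every tip value was above every crypt value, and the tip lay above the mid villus in 5 of 5 mice although the ranges of those zones overlapped. Muc13 at the tip was 4.19-fold above the crypt (log2 fold change 2.07 ± 0.34 SE, adjusted p = 4.14e-05). The size depended on scaling, with a log2 fold change of 1.73 ± 0.33 with total UMIs alone (adjusted p = 0.000160). In the mid villus Muc13 was 2.68-fold higher than in the crypt (log2 1.42 ± 0.33, adjusted p = 0.00172). In clumps sorted as pairs alone the log2 fold change of Muc13 from crypt to tip was 1.34 ± 0.51 (adjusted p = 0.0283), and from crypt to mid villus it was 0.87 ± 0.51 and not called (adjusted p = 0.205). From mid villus to tip the log2 fold change was 0.64 ± 0.33 (adjusted p = 0.210), and 0.70 ± 0.20 with mouse as a block (adjusted p = 0.00610).

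Muc3, the large brush border mucin of enterocytes, rose late along the axis. It measured 160, 229, 350, 194 and 205 CPM in the crypt clumps of mice 1 to 5 and 154, 315, 423, 414 and 261 CPM in the mid villus. At the tip it reached 652, 1067, 1329, 1605 and 614 CPM, so every tip value exceeded every value of the other zones, while crypt and mid villus overlapped. Muc3 at the tip was 5.84-fold above the crypt (log2 2.55 ± 0.34, adjusted p = 4.16e-06) and 4.04-fold above the mid villus (log2 2.01 ± 0.34, adjusted p = 0.000485). With total UMIs alone these log2 fold changes were 2.21 ± 0.38 (adjusted p = 5.60e-05) and 1.75 ± 0.38 (adjusted p = 0.00481). In clumps sorted as pairs alone the log2 fold change of Muc3 from crypt to tip was 1.68 ± 0.52 (adjusted p = 0.00830). Between mid villus and crypt its log2 fold change was 0.53 ± 0.32 (adjusted p = 0.202), and 0.48 ± 0.20 with mouse as a block (adjusted p = 0.0376). Between mid villus and crypt, 1 of the 4 members tested was thus called without the block, where 41.5% of genes were called, and between tip and mid villus also 1 of 4, where 13.1% of genes were called. Over all genes, 1198 were called higher and 1810 lower from crypt to mid villus (828 and 2208 with DESeq2 size factors), and 521 higher and 427 lower from mid villus to tip (264 and 680 with total UMIs alone).

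The different courses of Muc13 and Muc3 showed in the number of Muc3 UMIs per 100 Muc13 UMIs. Over the 5 mice this ratio had a median of 34.7 for crypt clumps, 19.2 for mid villus clumps and 46.4 for tip clumps. In 5 of 5 mice the mid villus ratio was below the crypt ratio, and in 5 of 5 it was below the tip ratio.

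**Figure D1:**
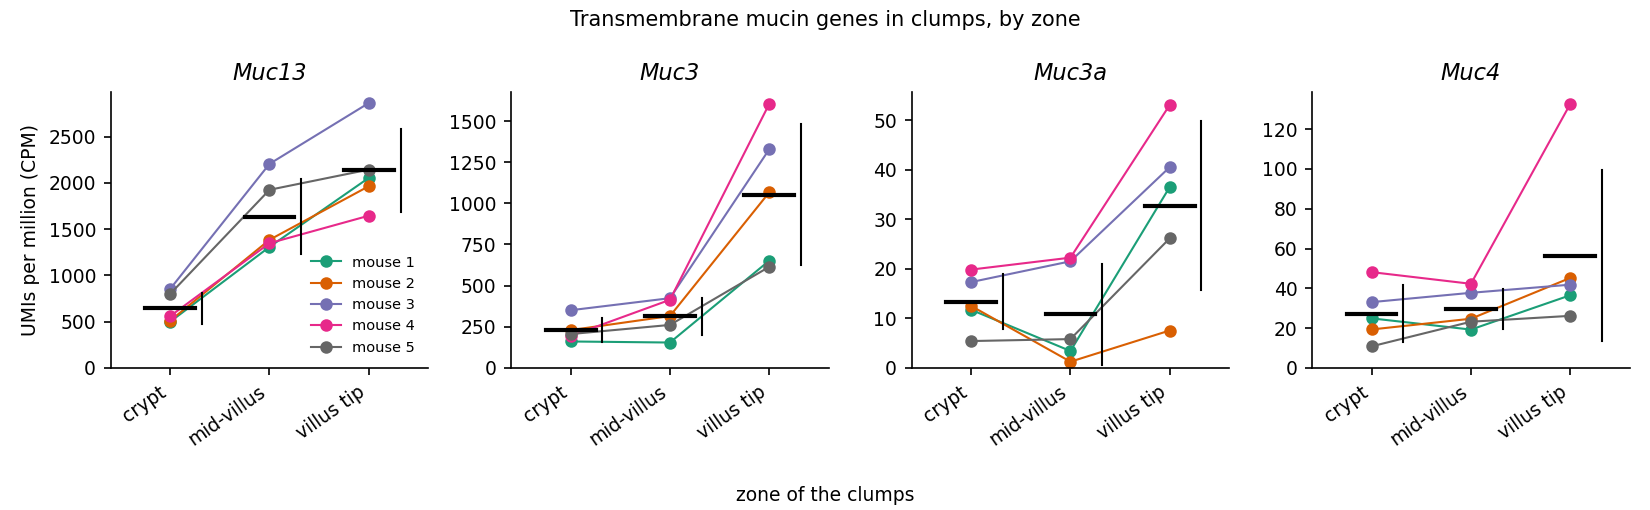
CPM (y axis, linear, from 0) of Muc13, Muc3, Muc4 and Muc3a in crypt, mid villus and tip clumps (x axis), with 1 coloured point per mouse a line joining the zones of a mouse, a horizontal bar for the mean and a vertical line for ± 1 SD over the 5 mice. Muc13 was already 1307 CPM or more in every mid villus sum, whereas Muc3 stayed at or below 423 CPM there and reached 614 CPM or more at the tip.

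Muc4, a large membrane mucin that binds the receptor ErbB2, was rare. It measured 24.9, 19.3, 33.0, 48.1 and 10.8 CPM in the crypt of mice 1 to 5, 19.2, 24.7, 37.7, 42.2 and 23.2 CPM in the mid villus, and 36.5, 45.2, 41.8, 133 and 26.1 CPM at the tip. The zones overlapped, but within each mouse the tip was the highest zone in 5 of 5. The tip value of mouse 4 rested on 10 UMIs and stood apart from the others. Muc4 at the tip was 2.19-fold above the crypt (log2 1.13 ± 0.38, adjusted p = 0.0173). From mid villus to tip the log2 fold change was 1.07 ± 0.41 (adjusted p = 0.0849), and 1.05 ± 0.29 with mouse as a block (adjusted p = 0.00602). Between mid villus and crypt it was 0.06 ± 0.35 (adjusted p = 0.917), negative with DESeq2 size factors.

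Muc3a, annotated next to Muc3 on chromosome 5, was the rarest of the 4. Its levels were 11.7, 12.5, 17.3, 19.8 and 5.40 CPM in the crypt of mice 1 to 5 and 3.39, 1.23, 21.5, 22.2 and 5.80 CPM in the mid villus. At the tip it measured 36.5, 7.53, 40.5, 53.0 and 26.1 CPM, from only 7, 3, 31, 4 and 2 UMIs. The zones overlapped, and mouse 2 had less at the tip than in the crypt. Muc3a at the tip was 2.65-fold above the crypt (log2 1.41 ± 0.53, adjusted p = 0.0298). From mid villus to tip the log2 fold change was 1.70 ± 0.57 (adjusted p = 0.0556), and 1.74 ± 0.42 with mouse as a block (adjusted p = 0.00153).

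The tip calls of Muc4 and Muc3a depended on the setting. With mouse as a block both were called (log2 1.16 ± 0.28, adjusted p = 0.000494 for Muc4; 1.47 ± 0.40, adjusted p = 0.00155 for Muc3a). Both were lost with DESeq2 (adjusted p = 0.0781 for Muc4 and 0.0839 for Muc3a) and with total UMIs in place of TMM scaling (0.120 and 0.114), and without mouse 2 or 3 for Muc4 (0.0911 and 0.0673) and without mouse 1 or 5 for Muc3a (0.101 and 0.0512).

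Summed markers of other cell classes differed in median between zones, with exceptions among the mice. The study's 39 goblet markers summed to a median of 1343 CPM in the crypt (range 1050 to 2231), 1465 in the mid villus (852 to 4385) and 3594 at the tip (1027 to 7213), whereas its 50 tuft markers had a median of 210 CPM (159 to 330) in the crypt and 92.8 CPM (65.3 to 242) at the tip. From crypt to tip the goblet sum was higher in 4 of 5 mice, all but mouse 2, and the tuft sum was lower in 4 of 5, all but mouse 3. The 48 enteroendocrine markers had a median of 95.7 CPM (67.5 to 144) in the crypt and 62.5 CPM (26.5 to 91.5) at the tip. The sum of the 10 Paneth markers ranged from 13.6 to 14728 CPM in the crypt and from 15.1 to 562 CPM at the tip. With all clumps that held 10 or more UMIs of any secretory marker list left out, Muc13 and Muc3 stayed called between tip and crypt, the log2 fold change of Muc4 was 0.91 (adjusted p = 0.0720) and Muc3a fell below the filter on low counts.

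Enterocyte-like single cells were given zones by the same landmark rule, so crypt cells here are those whose landmark expression matched the crypt list best. The 14 stem and dividing markers, summed for the class as a whole and not by zone, ranged from 33.8 to 127 CPM. In enterocyte-like single cells the rise towards the tip was seen again for 3 of the 3 members tested, where 60.7% of the 3894 genes tested were called. Muc3 measured 77.2, 285, 66.9 and 230 CPM in crypt cells of mice 1 to 4, 31.3, 232, 43.5 and 213 CPM in mid villus cells, and 155, 611, 355 and 521 CPM in tip cells. Within a mouse the tip was 2.00 to 5.31 times the crypt, in 4 of 4 mice, although ranges overlapped between mice, and the crypt value of mouse 1 came from 1 UMI in 5 cells. Its log2 fold change between tip and crypt was 2.14 ± 0.54 (adjusted p = 0.00161).

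Muc13 was 540, 401, 475 and 704 CPM in crypt cells, 1095, 895, 649 and 1270 CPM in mid villus cells, and 926, 851, 602 and 1207 CPM in tip cells of mice 1 to 4. It was lowest in the crypt in 4 of 4 mice, and in 4 of 4 mice the tip lay slightly below the mid villus, by CPM, with overlapping ranges. This last order is opposite to that in clumps and was not tested. The log2 fold change of Muc13 between tip and crypt was 1.87 ± 0.35 (adjusted p = 0.000105). Muc4 measured 77.2, 10.5, 14.9 and 17.7 CPM in crypt cells, the first from 1 UMI, and 19.2, 25.2, 28.1 and 17.8 CPM in tip cells. The tip was higher in 3 of 4 mice with overlapping ranges, and the log2 fold change was 1.44 ± 0.47 (adjusted p = 0.0123), a call lost without mouse 2 (0.0515) or mouse 3 (0.1001). Muc3a had 8, 4 and 5 UMIs in crypt, mid villus and tip cells and was too rare to test.

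Fold changes in these cells depended on scaling, since the median of all genes tested moved from 0.20 with TMM factors to -0.75 with total UMIs alone. With total UMIs, 437 genes were called higher and 1680 lower, against 1243 and 1122, and the log2 fold changes were 0.76 for Muc13 (adjusted p = 0.0430), 1.19 for Muc3 (0.0948) and 0.46 for Muc4 (0.457).

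Goblet cells, the mucus secretors, were then set against the other epithelial classes, with the members left out of the clustering so that no member helped to define a class. Against enterocyte-like cells, 2 of the 4 members tested were called, where 21.7% of the 4660 genes tested were called: Muc3a was higher and Muc3 lower in goblet-like cells. Over all genes, 335 were called higher and 674 lower, against 562 and 332 with total UMIs alone, as the median of all genes moved from -0.31 to 0.39.

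Muc3a had its highest level in goblet-like cells and a lower one in enteroendocrine-like cells. In goblet-like cells it measured 205, 279, 205 and 39.4 CPM in mice 1 to 4, from 21, 47, 41 and 1 UMIs, and in enterocyte-like cells 0.87, 2.06, 2.39 and 3.70 CPM. The classes did not overlap, and the lowest goblet value was that of mouse 4, with 15 goblet-like cells. The log2 fold change was 5.81 ± 0.59, or 56.1-fold (adjusted p = 4.45e-09), and it stayed called in every alternative run.

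In enteroendocrine-like cells, the hormone-secreting class, Muc3a was 117 CPM in mouse 1, 36.0 CPM in mouse 2 and 0 CPM in mice 3 and 4, where only 10 and 8 cells were available. Goblet-like cells were above them in 4 of 4 mice, with overlapping ranges, and the log2 fold change was 3.08 ± 0.66 (adjusted p = 0.00120). Tuft-like cells, the chemosensory class, held 1 Muc3a UMI of 411461 in the sums of mice 1 to 3, in mouse 2 (the cells of mouse 4 were too few for a sum). The pooled ratio of goblet-like to tuft-like cells was 91.1, with an exact 95% interval of 16.02 to 3632 that covers counting error only, and the test gave an adjusted p of 1.58e-05. Immune-like cells also held 1 Muc3a UMI, of 1627255 in the sums of mice 2 to 4.

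A Muc3a UMI was found in 70 of 213 goblet-like cells, or 32.9% (exact binomial 95% interval 26.6 to 39.6%), and in 31.1, 38.3, 33.3 and 6.67% of those of mice 1 to 4. The share was 6.94% in enteroendocrine-like cells, 0.678% in enterocyte-like cells, 0.535% in tuft-like cells and 0.0616% in immune-like cells, a class that should lack the gene. Median depths were 1991 UMIs per goblet-like, 1829 per enteroendocrine-like, 2852 per enterocyte-like, 2198 per tuft-like and 848 per immune-like cell. With each cell thinned to 500 UMIs, and 6 goblet-like, 7 enteroendocrine-like, 44 enterocyte-like, 8 tuft-like and 318 immune-like cells of lower depth left out, shares were 10.1% in goblet-like, 3.78% in enteroendocrine-like, 0.122% in enterocyte-like and 0.0766% in immune-like cells. Goblet-like cells had the highest pooled Muc3a share at both depths. These shares pool the cells of all mice and their intervals cover counting error only, so they are no test between classes.

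**Figure D2:**
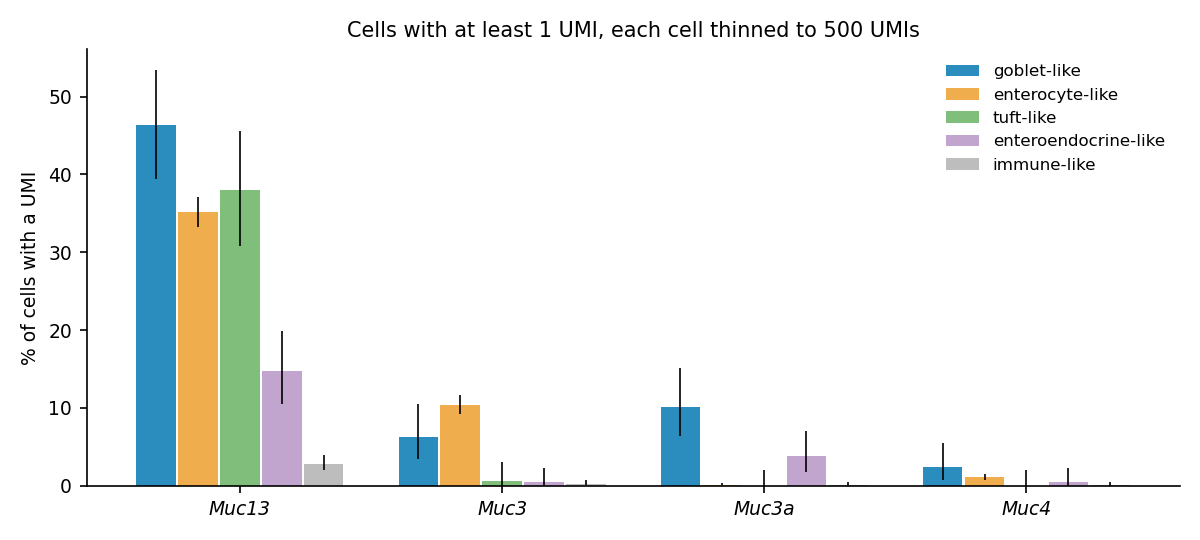
Percentage of cells with at least 1 UMI of each member (y axis, from 0) after thinning to 500 UMIs per cell, with shallower cells left out, for goblet-like, enterocyte-like, tuft-like, enteroendocrine-like and immune-like cells, with exact 95% binomial intervals as error bars, which cover counting error only. Muc3a was found in 10.1% of goblet-like and 0.122% of enterocyte-like cells, whereas Muc3 was found in 6.28% and 10.3%.

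Muc3 showed the opposite order. It measured 78.1, 160, 99.8 and 78.7 CPM in goblet-like cells and 137, 383, 124 and 353 CPM in enterocyte-like cells of mice 1 to 4. Enterocyte-like cells were higher within 4 of 4 mice, although the ranges overlapped between mice. The log2 fold change of goblet-like against enterocyte-like cells was -1.88 ± 0.53 (adjusted p = 0.00824), and the call was lost with total UMIs (adjusted p = 0.119), without mouse 4 (0.104) and without the plates gated on CD24 (0.0901). Tuft-like cells held 3 Muc3 UMIs and enteroendocrine-like cells 8. Enteroendocrine-like cells measured 0, 15.8, 0 and 88.5 CPM in mice 1 to 4, and the last value, from 1 UMI, lay above the goblet-like value of mouse 4. Goblet-like cells had 15.7 times the pooled tuft-like level (interval 5.12 to 78.6, adjusted p of the test 0.00147), and their log2 fold change against enteroendocrine-like cells was 3.42 ± 0.81 (adjusted p = 0.00314).

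Muc13 was abundant in goblet-like, enterocyte-like and tuft-like cells. It measured 1093, 1313, 1277 and 787 CPM in goblet-like cells of mice 1 to 4 and 947, 814, 593 and 1157 CPM in enterocyte-like cells, with overlapping ranges and goblet-like cells higher in 3 of 4 mice. The fitted log2 fold change was nevertheless -0.53 ± 0.58 (95% interval -1.71 to 0.65, adjusted p = 0.606), and 0.36 with total UMIs, so the direction depended on scaling. Tuft-like cells measured 1176, 937 and 185 CPM in mice 1 to 3, the last from 3 UMIs, and their difference from goblet-like cells was not called (log2 0.95 ± 0.65, adjusted p = 0.385) except with mouse as a block (1.33 ± 0.47, adjusted p = 0.0248).

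Enteroendocrine-like cells had less Muc13, at 467, 365, 146 and 354 CPM, from 12, 162, 3 and 4 UMIs, all below every goblet value. Goblet-like cells exceeded them with a log2 fold change of 2.59 ± 0.64 (adjusted p = 0.00481), and 1.74 ± 0.55 with total UMIs (adjusted p = 0.0336). Immune-like cells measured 81.1, 43.4 and 129 CPM in mice 2 to 4, and 5.67% of them held a Muc13 UMI against 83.1% of goblet-like, 75.1% of enterocyte-like, 73.8% of tuft-like and 48.6% of enteroendocrine-like cells.

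Muc4 was found at 48.8, 47.5, 54.9 and 0 CPM in goblet-like cells and 20.3, 15.1, 14.3 and 14.8 CPM in enterocyte-like cells of mice 1 to 4. Goblet-like cells were higher in 3 of 4 mice, but the value of 0 in mouse 4, where 1 UMI would have made 39.4 CPM, made the ranges overlap. The difference was not called (log2 0.63 ± 0.63, adjusted p = 0.565). Enteroendocrine-like cells measured 38.9, 38.3, 48.6 and 0 CPM, from only 1, 17, 1 and 0 UMIs. They did not differ detectably from goblet-like cells (log2 1.02 ± 0.82, 95% interval -0.65 to 2.68, adjusted p = 0.497). Tuft-like cells held 3 Muc4 UMIs. The pooled ratio of goblet-like to tuft-like cells was 6.63 (interval 2.01 to 34.4), and the test gave an adjusted p of 0.0668, or 0.00219 with mouse as a block.

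In counts, 2 of the 4 members tested were called between goblet-like and tuft-like cells, where 15.5% of genes were called (354 higher and 370 lower, against 256 and 578 with total UMIs). Between goblet-like and enteroendocrine-like cells 3 of 4 were called, where 13.5% of genes were called (362 higher and 269 lower, against 202 and 457). Of the 187 tuft-like and 245 enteroendocrine-like cells, 158 and 217 came from mouse 2. Without that mouse the calls of Muc13, Muc3 and Muc3a against enteroendocrine-like cells were lost (adjusted p = 0.137, 0.244 and 0.221), as was that of Muc3 against tuft-like cells (0.299).

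Muc1 had no UMI in the epithelial classes. Counts of 0 allow up to 0.387 CPM in enterocyte-like, 6.04 CPM in goblet-like, 5.98 CPM in enteroendocrine-like and 7.29 CPM in tuft-like cells (sums of mice 1 to 3), taking 3 UMIs as the limit. The 2 Muc1 UMIs among the cells kept were in immune-like cells of mouse 3.

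**Figure D3:**
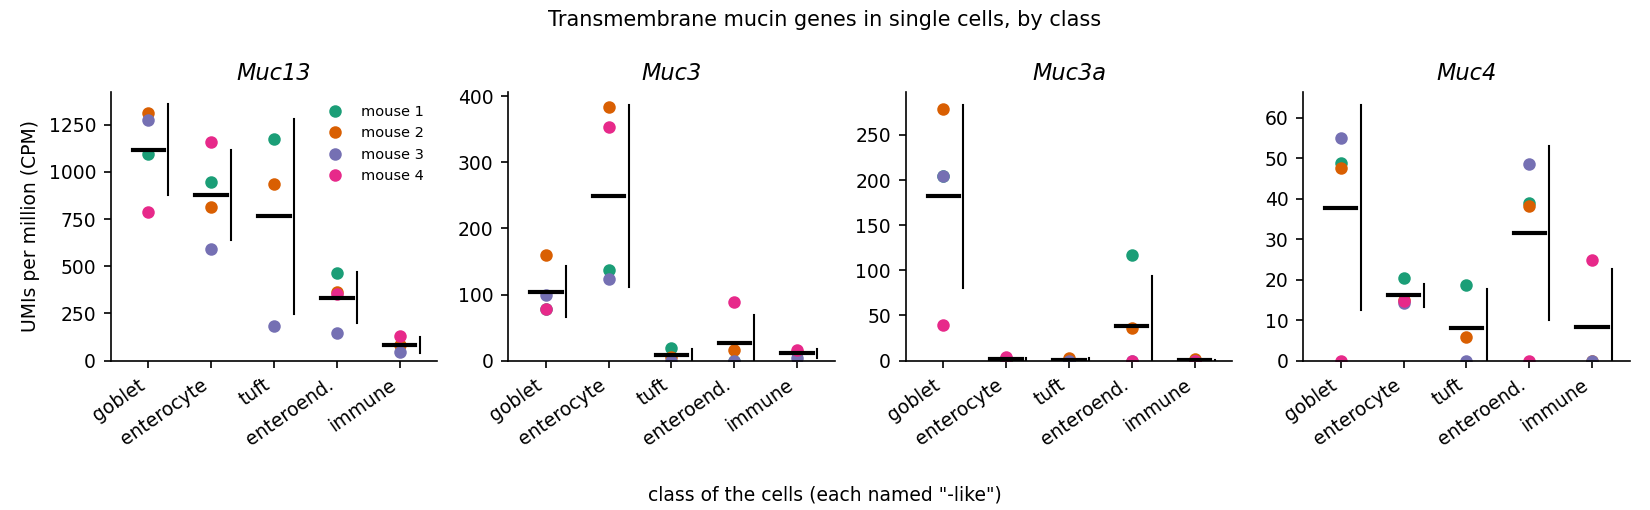
CPM (y axis, linear, from 0) of each member in goblet-like, enterocyte-like, tuft-like, enteroendocrine-like and immune-like cells (x axis), 1 coloured point per mouse, a horizontal bar for the mean and a vertical line for ± 1 SD over mice. Goblet-like cells of 3 mice lie at 205 CPM or more for Muc3a while no enterocyte-like sum exceeds 3.70 CPM, and for Muc3 enterocyte-like cells lie above goblet-like cells of the same mouse.

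Goblet-like cells were also placed along the axis by eta, the share of tip landmarks among their goblet landmark UMIs, and split at the median eta of the 206 cells with at least 5 landmark UMIs. No member is a goblet landmark. Of the 2 members abundant enough to test, 0 were called, where 6.07% of the 313 genes tested were called by edgeR. Muc13 measured 912, 1181, 1189 and 572 CPM in crypt-ward cells and 1152, 1413, 1537 and 1262 CPM in tip-ward cells of mice 1 to 4, higher tip-ward in 4 of 4 mice with overlapping ranges. Its log2 fold change was 0.40 ± 0.34 (95% interval -0.34 to 1.15, adjusted p = 0.422).

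Muc3a measured 114, 269, 187 and 0 CPM in crypt-ward and 247, 299, 256 and 126 CPM in tip-ward goblet-like cells, also higher tip-ward in 4 of 4 mice with overlapping ranges (log2 0.58 ± 0.50, 95% interval -0.50 to 1.66, adjusted p = 0.425). The 2 values of mouse 4 rested on 0 and 1 UMIs, and the crypt-ward value of mouse 1 on 3 UMIs. Muc3 measured 38.0, 105, 53.4 and 0 CPM in crypt-ward and 96.0, 206, 237 and 252 CPM in tip-ward cells, higher tip-ward in 4 of 4 mice, but with 2 to 20 UMIs per tip-ward sum it did not pass the filter. Without that filter its log2 fold change was 1.64 and that of Muc4 was 1.27, both with an adjusted p of 0.507.

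The clumps allowed a further look at the goblet pattern, since some held goblet cells. Clumps with 10 or more UMIs of the study's goblet markers numbered 861 and those with none 2367. The first were much deeper, with a median of 9933 UMIs per clump against 1391, and any threshold on UMIs favours deep clumps. Muc3a had 59.1% of its zoned clump UMIs in goblet-rich clumps, which held 35.1% of all UMIs, and 6.25% in goblet-free clumps, which held 14.7%. For Muc13 the shares were 27.8 and 21.3%, for Muc3 25.9 and 20.6%, and for Muc4 37.2 and 9.77%. These pooled shares rest largely on mouse 4. Without it, an alternative chosen after the data had been seen, goblet-rich clumps held 18.4% of all UMIs, 63.7% of the Muc3a UMIs, 14.8% of those of Muc13, 11.2% of those of Muc3 and 18.9% of those of Muc4, and goblet-free clumps held 30.1% of all UMIs and 13.9% of the Muc3a UMIs.

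**Figure D4:**
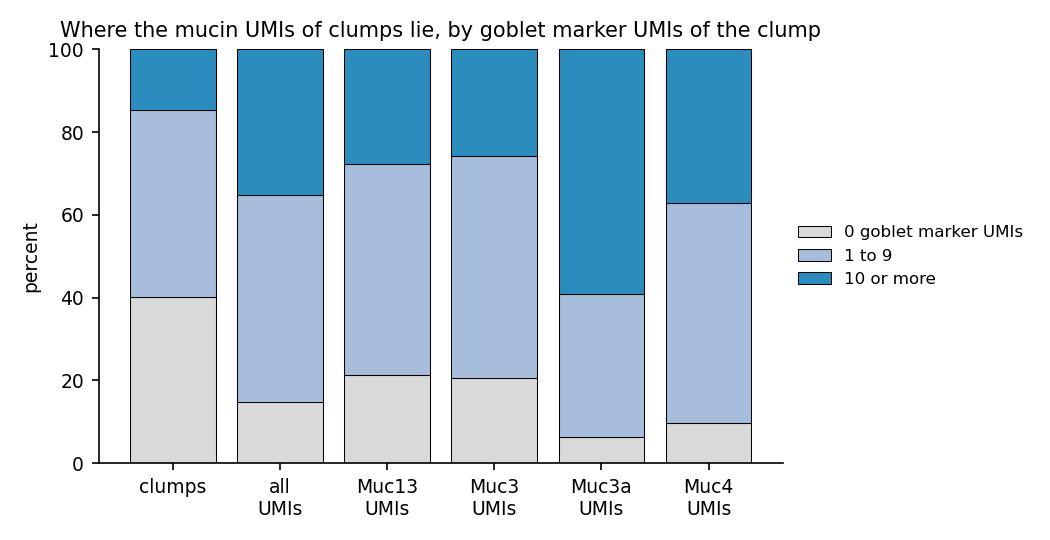
Percentage (y axis, 0 to 100) of clumps, of all UMIs and of each member's UMIs that lay in clumps with 0, 1 to 9, or 10 or more goblet marker UMIs. Goblet-rich clumps held 35.1% of all UMIs but 59.1% of the Muc3a UMIs, and 18.4% and 63.7% without mouse 4.

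Within the 14 pairs of sums of the same mouse and zone, Muc3a was higher in goblet-rich than in goblet-free clumps in 12, with medians of 49.4 and 8.09 CPM. In goblet-rich clumps of crypt, mid villus and tip it measured 23.0, 64.4 and 254 CPM in mouse 1 and 34.4, 98.4 and 260 CPM in mouse 3, against 11.4, 0 and 7.72 CPM and 17.3, 8.45 and 11.9 CPM in their goblet-free clumps. Mouse 4 had 23.8 CPM in goblet-rich crypt clumps and 79.2 CPM in the mid villus, with too few goblet-rich tip clumps for a sum. The order of zones was not shared by the other mice, since goblet-rich clumps of mouse 2 had 66.1, 25.8 and 0 CPM and those of mouse 5 had 9.50, 0 and 322 CPM, the last from 2 UMIs. The zones within goblet-rich clumps were not tested. Muc3a did not pass the filter on low counts in this comparison, and without the filter its log2 fold change, with zone as a term, was 2.86 (adjusted p = 6.55e-07). Zones of the same mouse entered this test as separate sums with no term for mouse. Its p-values therefore count zones of an animal as replicates, and the pairs are not independent.

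Muc13 and Muc3 were tested in these clumps and neither was called, where 2.29% of the 1485 genes tested were called. Muc13 was lower in goblet-rich clumps in 11 of 14 pairs (log2 -0.31 ± 0.23, 95% interval -0.76 to 0.15, adjusted p = 0.549), and Muc3 was lower in 9 of 14 (log2 -0.38 ± 0.28, 95% interval -0.94 to 0.19, adjusted p = 0.549). Muc4 was higher in 7 and lower in 7 of the 14 pairs.

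**Figure D5:**
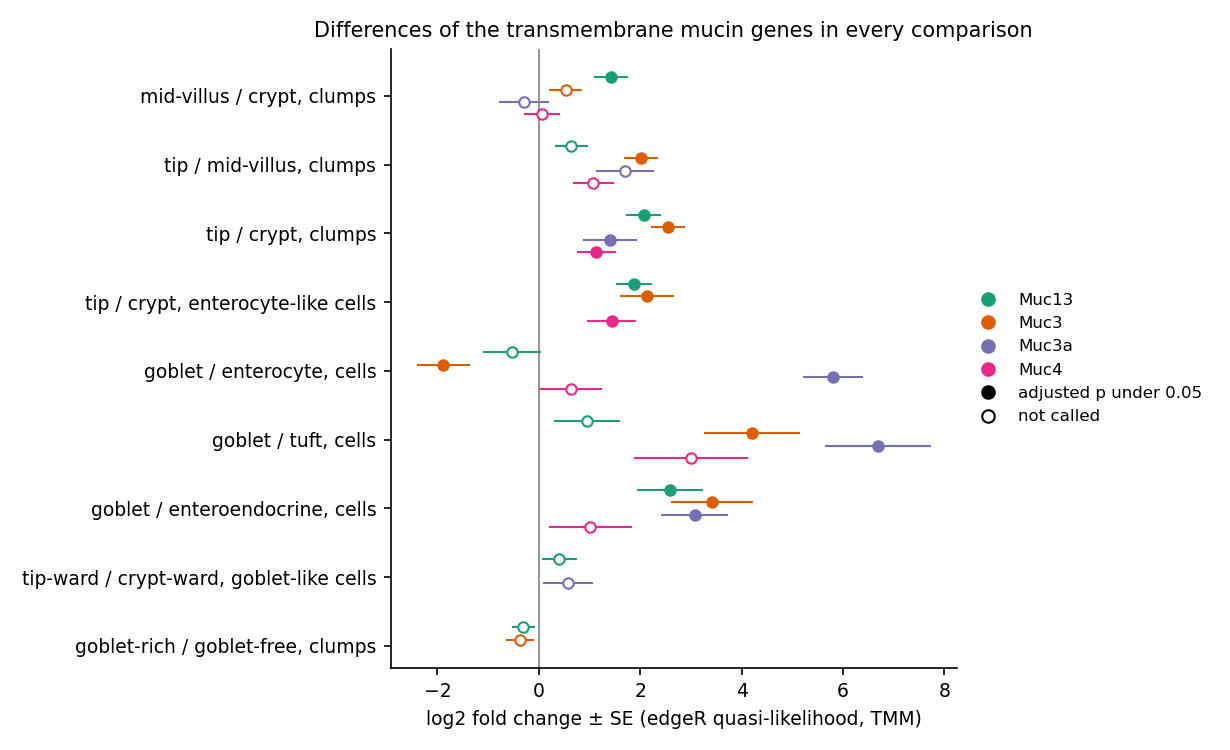
Fitted log2 fold change ± SE (x axis) of each tested member in every comparison (y axis), with filled points for an adjusted p under 0.05 and open points otherwise. Muc3a lies at 5.81 for goblet-like against enterocyte-like cells, where Muc3 lies at -1.88, and all 4 members are filled between tip and crypt clumps.

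Genes whose course over the 15 mouse and zone sums of clumps was most like that of each member were found by Pearson's r of log2(CPM + 5), a description of sums that share mice, zones and depth. Muc13 was followed most closely by Spint1, an inhibitor of membrane serine proteases (r = 0.97), Cdhr5, a mucin-like protocadherin of the microvillus tip links (0.96), and Ceacam2, an adhesion molecule (0.96). Cdhr5 had medians of 259.8, 948 and 1333 CPM in crypt, mid villus and tip. Muc3 was followed by Specc1l, a cytoskeletal protein (0.96), Sdcbp2, a PDZ-domain scaffold also called syntenin-2 (0.93), and the secreted protein Metrnl (0.93), whose medians were 26.5 CPM in the crypt and 106 CPM at the tip. The closest genes to Muc3a were the nuclear receptor Hnf4a (0.87), the LIM-domain protein Fhl2 (0.84) and the tight junction protein occludin, Ocln (0.82). Those closest to Muc4 were Tab2 and Map2k3 of stress kinase signalling (0.86 and 0.86) and the cyclin Ccnt1 (0.85). With clumps grouped otherwise or a mouse left out, 21 values of r for these genes moved beyond a set margin and 99 did not. The Muc3a sums held as few as 1 UMI. Among the members themselves, r was 0.71 for Muc3 with Muc13, 0.71 for Muc3 with Muc4 and 0.28 for Muc3a with Muc13.

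Other genes of mucin biology gave the setting. Of 10 secreted mucins and mucus partners, 7 were tested between tip and crypt clumps, 5 rose, none fell and 2 were not called, where 54.2% of all genes tested were called and 23.8% rose. Their median log2 fold change was 2.19, against -0.12 for all genes tested. Zg16, a mucus lectin, was at 3.04, the gel-forming mucin Muc2 at 2.53 and the mucus metalloprotease Clca1 at 2.47. The same 7 were higher in goblet-like than in enterocyte-like cells, but all 7 were among the markers by which the class was named. None of the 6 other transmembrane mucins listed (Muc12, Muc15, Muc16, Muc17, Muc20 and Muc21) was among the genes tested in any comparison. Genes without a row and genes too rare to test were not told apart here.

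Of 35 genes of mucin-type O-glycosylation, the enzymes that build the sugar chains, 16 were tested between tip and crypt clumps, 5 rose, 1 fell and 10 were not called (median 0.94, against -0.12 for all genes), where 54.2% of all genes were called and 23.8% rose. The sialyltransferase St3gal1 was at 3.91, the initiating enzyme Galnt6 at 1.90 and the sialyltransferase St6galnac2 at -1.69. Between goblet-like and enterocyte-like cells 17 were tested, of which 9 were higher, 1 was lower and 7 were not called, where 21.7% of all genes were called (median 1.68, against -0.31 for all genes). Galnt12, another initiating enzyme, was at 6.39, the core-branching enzyme Gcnt3 at 4.84 and the sulfotransferase Chst4 at 4.74. These genes could enter the clustering that defined the classes, so their values between classes are a description.

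Of 12 genes for apical anchors and sheddases, 10 were tested between tip and crypt clumps, 8 rose, none fell and 2 were not called (median 2.40), where 54.2% of all genes were called and 23.8% rose. The galectin Lgals3 was at 3.76, the microvillus protocadherin Cdhr2 at 3.42 and the PDZ scaffold Pdzk1 at 2.81, but Lgals3 and Pdzk1 are landmarks that placed the clumps. Between goblet-like and enterocyte-like cells none of the 10 was higher, 5 were lower and 5 were not called (median -1.55), where 21.7% of all genes were called, with Pdzk1 at -4.83, Cdhr2 at -2.58 and the microvillus myosin Myo7b at -2.57. These genes too could enter the clustering, so the values between classes are a description.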

How the data were processed

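The deposited tables hold whole-number UMI counts per gene and well from MARS-seq, a plate-based 3' method with 384 well barcodes per plate; the authors made them with STAR and zUMIs on GRCm38 (demultiplexing with bcl2fastq 2.15.0.4 per the labels). Empty wells were not named, so background was not subtracted. All plates share these barcodes, so wells were identified by plate and barcode. Clump wells needed at least 200 genes, over 500 UMIs and at most 30% mitochondrial UMIs, and cells between 200 and 7000 UMIs, between 150 and 1500 genes and a mitochondrial share of at most 40%. The upper cell limits served against doublets, and no doublet caller was run. Cells were clustered with scanpy 1.11.5 (2000 variable genes, 25 components, Leiden resolution 0.1), and clusters named from marker lists.

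Counts were summed per mouse and group (at least 5 wells) and tested in edgeR 4.0.16 (TMM, filterByExpr, quasi-likelihood test, Benjamini-Hochberg over all genes tested), with DESeq2 1.42.0 as an alternative. SE is the log2 fold change divided by the root of F, and intervals use the t distribution of the test. The test code was tested on simulated data. The mouse is the replicate, taken from the labels' mouse number, except between goblet-rich and goblet-free clumps, where each zone of a mouse was a separate sum. Single-cell mouse 2 has plates labelled 3 and 4 months and may be more than 1 animal. Leaving out the 4-month plates changed no member's call between goblet-like and other classes. Deviations of sums of a mouse correlated with r from 0.19 to 0.60 between zones of clumps and from 0.01 to 0.54 between cell classes. Members and gene lists were chosen with earlier results of these data known. The text names all members, the 3 genes most correlated with each, and the 3 called genes of each list with the largest change.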

Additional observations from a re-analysis of the deposited data

Results flagged for a closer look

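Of 45 groups of 4 or 5 mice, 6 held a member level far from the others by Dixon's test, which by chance marks about 1 group in 20. Of these, 5 concerned Muc4. Its level in tip clumps of mouse 4 was 133 CPM, from 10 UMIs, with the other mice between 26.1 and 45.2 CPM. In enterocyte-like cells of mouse 1 it was 77.2 CPM in the crypt, from 1 UMI, 25.04 CPM in the mid villus, from 8 UMIs, and 20.3 CPM over all zones, from 47 UMIs, where the other mice measured 14.3 to 15.1 CPM. In goblet-like cells of mouse 4 it was 0, with the others between 47.5 and 54.9 CPM. That sum held 25405 UMIs from 15 cells, so 1 UMI would have made 39.4 CPM. The single Muc1 UMI of the zoned clumps, in the crypt of mouse 4, gave 0.0526 CPM where the other mice had 0.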

How the results depend on the processing

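The alternatives were DESeq2, other scalings, no filter on low counts, mouse as a replicate block, each mouse left out and other choices of wells. Muc3 and Muc13 between tip and crypt clumps and Muc3a between goblet-like and enterocyte-like cells stayed called in every alternative that gave a value. The cause of the changes below was not tested.

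Tip against crypt clumps: Muc3a fell short of the threshold at 1.16 with DESeq2, 1.06 with DESeq2 size factors, 1.06 with total UMIs and 1.29 with no filter (all log2 fold changes), and Muc4 at 0.86, 0.80, 0.78 and 0.99 in the same settings, 0.60 with pairs (4n) only and 0.91 without secretory clumps. With pairs only, 2459 genes were called. Leaving out each mouse in turn gave 1.25 to 1.64 for Muc3a (not testable without mouse 3), 0.98 to 1.19 for Muc4 and 2537 to 4115 genes called.

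Mid villus against crypt: Muc4 changed sign with DESeq2 (-0.15), its size factors (-0.18), pairs only (-0.26) and without secretory clumps (-0.10), and ranged from -0.15 to 0.26 with a mouse left out (-0.04 without mouse 2, -0.15 without mouse 3). Muc3 was at -0.066 with pairs only and 0.48, called, with the block. Muc13 was at 0.87, not called, with pairs only, where 1540 genes were called. Leaving out a mouse gave 1753 to 3265 genes.

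Tip against mid villus: with the block Muc3a (1.74), Muc4 (1.05) and Muc13 (0.70) were called, with 1977 genes. Muc3a was also called with DESeq2 (1.69) and with mouse 6 added (2.58). No filter gave 507 genes, pairs only 560, and leaving out a mouse 371 to 1013.

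Enterocyte-like cells: Muc3 (1.19) and Muc4 (0.46) were not called with total UMIs, Muc4 ranged from 1.30 to 1.62 with a mouse left out (not testable without mouse 1), and no filter gave 3971 genes.

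Goblet-like against enterocyte-like cells: Muc3 was not called with total UMIs (-1.19) or without CD24-gated plates (-1.73) and ranged from -2.19 to -1.59 with a mouse left out; Muc13 turned to 0.36 with total UMIs. No filter gave 1598 genes, no CD24 plates 424, and a mouse left out 379 to 1174. Against tuft-like cells Muc4 was called with no filter (3.05), with the block (3.10) and without mouse 1 (3.34) or mouse 4 (3.39), and Muc13 with the block (1.33). A mouse left out gave 2.87 to 4.71 for Muc3, 2.95 to 3.39 for Muc4 (tested in only 3 of the 4 runs) and 175 to 791 genes, and no CD24 plates 295 genes. Against enteroendocrine-like cells the block gave 954 genes and no CD24 plates 231, with Muc13 at 2.47, not called. A mouse left out gave 2.94 to 3.78 for Muc3, 2.49 to 3.23 for Muc3a, 2.30 to 2.80 for Muc13 and 134 to 744 genes.

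Along the goblet axis the 19 genes called became 128 at an adjusted p of 0.25, 68 with DESeq2, 4 with its size factors, 7 with total UMIs, 56 with no filter, 74 with the block, 38 with eta of 0.5, 29 with at least 10 landmark UMIs and 0 to 69 with a mouse left out; edgeR called 0 genes without mouse 1, 2 or 3, where 121, 27 and 31 genes had an unadjusted p under 0.05. Between goblet-rich and goblet-free clumps the 34 genes called became 64 with DESeq2, 204 with no filter, 112 with the block, 22 with at least 5 marker UMIs and 17 to 33 with a mouse left out. The block changed no other member's call.

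Depth limits Muc3a, Muc4 and Muc1 most: tip clumps held 47, 69 and 0 UMIs of them.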

Other observations

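Mouse 6, whose clumps were sorted under another gate, had 244 clumps with a zone and 1183567 UMIs. They held 1404 Muc13, 302 Muc3, 49 Muc4 and 39 Muc3a UMIs and none of Muc1. In the cluster of plasma and red cells, 392 cells, 19 held a Muc13 UMI (4.85%, exact 95% interval 2.94 to 7.47%), 3 a Muc3 UMI, 1 a Muc3a UMI and 1 a Muc4 UMI.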
